A study of Mus musculus with 8 samples.

Results

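The comparison of LMP1-expressing B cells with YFP control B cells rests on 4 of the 8 arrays of the series, 2 per group. It covers every gene that the array measures through a probe set with 1 gene symbol, which gave 22225 of 25349 probe sets and 21515 genes. The B cells came from spleens of female (C57BL6XBALBc) F1 mice and were enriched by depletion of CD43-positive cells on magnetic columns. The control genotype was YFPflSTOP/+, in which removal of a loxP-flanked stop cassette switches on the reporter YFP. The LMP1 genotype was LMP1flSTOP/YFPflSTOP, in which the same step switches on both LMP1 and the reporter. Cells of both genotypes were given TAT-Cre, a recombinase that enters cells from the medium, and YFP-positive cells were sorted 2 days later. The RNA was isolated with TRIzol, and the WT PLUS kit was used for labelling. The other 4 arrays of the series, naive and CD40-activated B cells of male C57BL6 mice (B6/J), entered the comparison only through the shared estimate of the spread between arrays. The labels mark the LMP1 and YFP control arrays as analysed again, and all 8 arrays were normalized in 1 step. The age of the mice is not given in the sources used here. Both groups went through the recombinase, the culture and the sort, so the model covers the first days of LMP1 expression in cultured cells. The LMP1 and YFP transcripts were not analysed here, so the labels were not checked against them.

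LMP1 is an oncoprotein of Epstein-Barr virus that clusters in the membrane by itself and recruits TRAF and TRADD adaptors to its tail. It thereby keeps canonical and noncanonical NF-kB, MAP kinase and other pathways switched on, much as the receptor CD40 does for as long as its ligand is bound. In B cells it is known for driving proliferation and blast formation and for making the cells visible to T cells. Resting B cells, in contrast, express antigen receptor components, inhibitory coreceptors and quiescence factors.

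The arrays give log2 levels, and all changes below are log2 differences, LMP1 minus YFP control, with the standard error of the limma model and n = 2 arrays per group. A gene was called at an adjusted p under 0.05 (limma, Benjamini-Hochberg over 21515 genes). The labels name the arrays biological replicates without saying which animals they came from. The p-values measure the spread between arrays, pooled over the 4 groups of the series. That pooling takes the spread as equal, while the median SD over the 2 arrays was 0.198 for YFP control and 0.085 for LMP1. In bulk RNA, fewer cells of a type and less RNA per cell cannot be told apart. Array medians lay between 5.59 and 5.73 on the 4 arrays.

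YFP control 2 stood apart from YFP control 1. The YFP controls correlated with r = 0.975 across genes and the LMP1 arrays with r = 0.996, where genes are not independent replicates. The YFP controls were more than 1 log2 apart at 950 genes, 665 of them higher on control 1, and the LMP1 arrays at 14. The interquartile range of gene levels was 3.06 on YFP control 1 and 2.62 on YFP control 2, against 3.38 and 3.28 on the LMP1 arrays. Among the genes farthest apart, the histone variant H2ax read 9.52 and 6.51 and Jun 8.78 and 5.95 on YFP controls 1 and 2. In the other direction the secretoglobin Scgb1a1 read 4.28 and 7.80, the cytokine Il1a 5.32 and 8.11, the chemokine Ccl2 5.72 and 7.87 and the surfactant gene Sftpc 5.25 and 7.20. Scgb1a1 and Sftpc are genes of lung epithelium, and neither was called with all arrays. Over a list of 12 such genes drawn up after this was seen, the log2 of the summed level was 10.56 on YFP control 1, 10.69 on YFP control 2, 10.37 and 10.49 on the LMP1 arrays. The median level of the same 12 genes was 5.24 on YFP control 1, 6.34 on YFP control 2, 4.98 and 5.26 on the LMP1 arrays, so YFP control 2 was the highest. Of these genes 1 was called lower with all arrays and 5 without YFP control 1, and the part of other cells in YFP control 2 was not tested. On the LMP1 side the potassium channel Kcnma1 read 10.21 and 8.02 and the cytokine Il9 7.74 and 5.62. Jun and Il9 were called higher with all arrays and not without YFP control 2. The histograms of array differences show the wider spread of the controls.

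**Figure D1:**
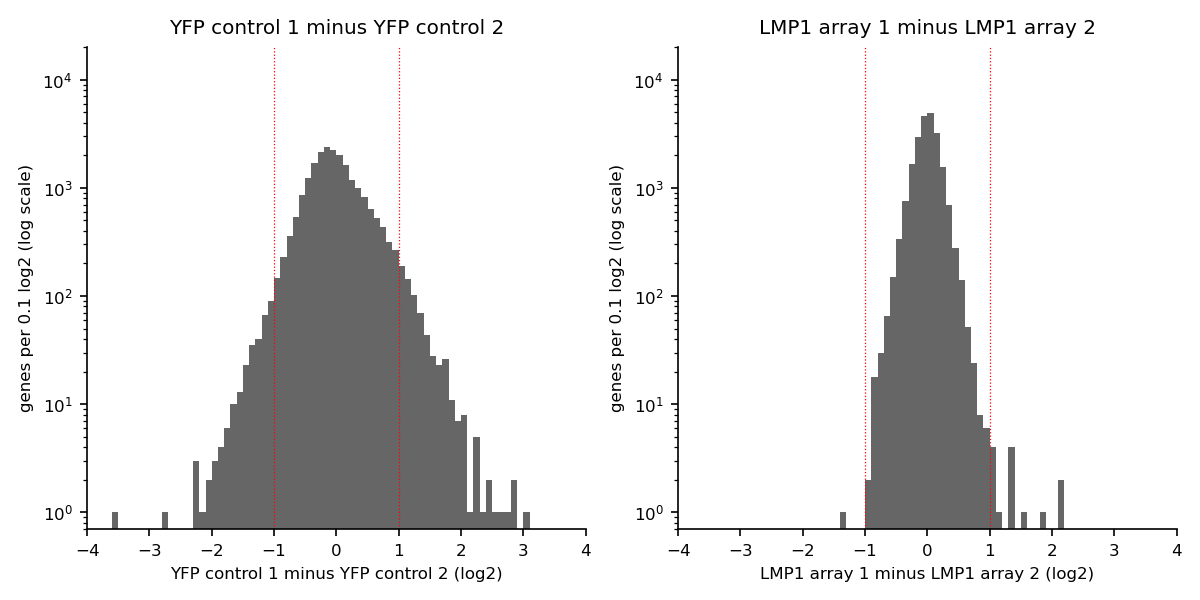
Histograms of the difference between the arrays of 1 group over 21515 genes, in bins of 0.1 log2 with a log count axis, and dotted red lines at 1 log2 in either direction. The YFP controls (left) exceed the lines at 950 genes and the LMP1 arrays (right) at 14.

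LMP1 cells differed from their controls at 4995 genes, or 23.2% of those tested. Of these, 3208 were higher (14.9%) and 1787 lower (8.31%), so that 64.2% of the calls were upward, against 52.1% after quantile normalization within the 4 arrays. Large changes were frequent: 315 genes were called higher and 176 lower by at least 2 log2, and 44 and 32 by at least 3. On 13168 genes (61.2%) the arrays of the groups did not overlap, 5924 higher and 7244 lower with LMP1. With 2 arrays per group such separation is frequent even without a change. On 1705 genes (7.92%) the lowest array of the higher group exceeded the highest of the lower group by at least 1 log2. Of these, 1214 were higher and 491 lower with LMP1. All of those 1705 genes were also called. Without YFP control 1 the fit called 7090 genes and without YFP control 2 it called 4732, of which 4595 and 3959 were called with all arrays too, and none of the shared calls had the other sign. Every called gene had groups that did not overlap, so leaving out 1 control could not have reversed a sign. The shares of 14.9% higher and 8.31% lower are the background for the counts of each gene list below. With 1 YFP control the fit takes the spread of that group from the others.

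**Figure D2:**
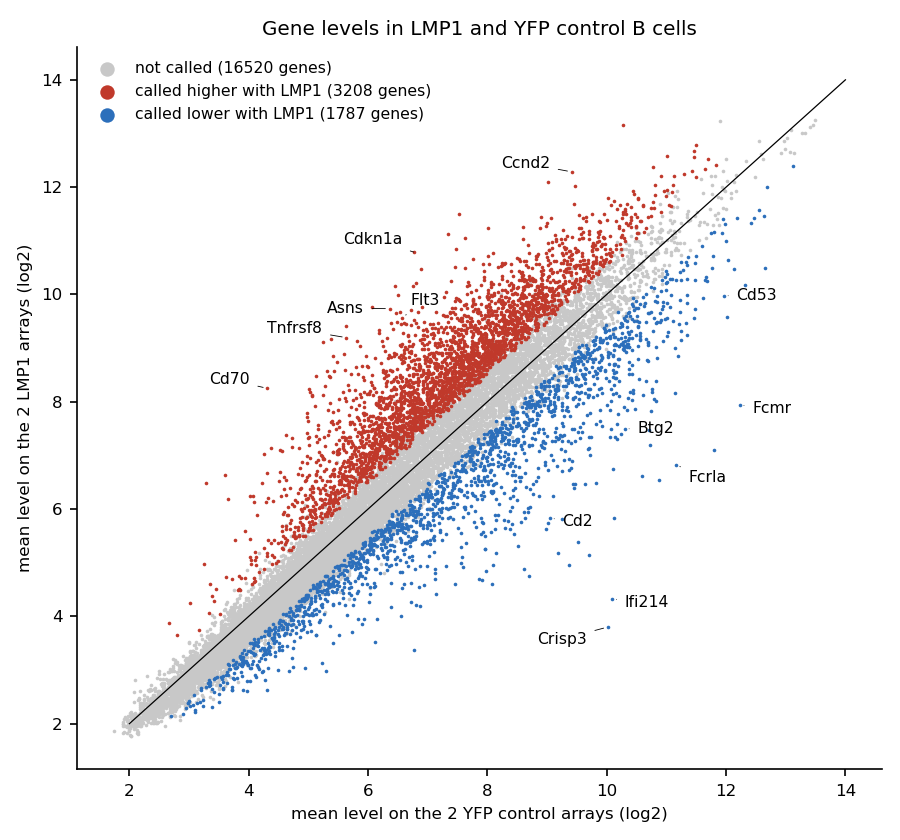
Mean level of each gene on the 2 YFP control arrays (x axis, log2) against the 2 LMP1 arrays (y axis, log2), with the line of equal levels. Called genes (3208 higher in red, 1787 lower in blue) spread away from the line mostly at middle and high levels, and Crisp3 and Ifi214 lie farthest below it.

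The share of calls depended on the level of the gene in control cells. Among the 4303 genes with the lowest YFP control level (1.74 to 4.37) 1.21% were called higher and 3.46% lower. Among the 4303 genes with the highest level these shares were 24.8% and 19.7%, and in the group of 4303 just below them 32.1% and 9.48%. The share of lower calls was largest among the brightest genes of the control cells, and that of higher calls just below these.

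The 15 genes per direction whose groups stood farthest apart on the arrays had varied roles. The cell cycle inhibitor gene Cdkn1a had the largest increase of all called genes, from 6.85 and 6.68 in controls to 10.79 on both LMP1 arrays. Tnfrsf8, which encodes the activation receptor CD30, read 5.43 and 5.84 on the YFP controls and 9.21 and 9.18 on the LMP1 arrays. Both LMP1 arrays were far above both controls, a change of 3.56 ± 0.20 (adjusted p = 7.29e-06). Tbx21, encoding T-bet, the transcription factor of type 1 responses, read 6.59 and 6.90 in controls and 10.11 and 10.20 with LMP1, a change of 3.41 ± 0.19 (adjusted p = 7.24e-06). Cdk6, a G1 kinase partner of D cyclins, was at 7.45 on each control and 10.52 on each LMP1 array, a change of 3.07 ± 0.17 (adjusted p = 6.86e-06). Mybl2, encoding the cell cycle factor B-Myb, rose from 8.0 and 8.02 to 11.23 on both LMP1 arrays. For these genes the arrays of a group lay close together and the groups did not overlap.

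Other large increases were those of Sema7a, Serpinb9, P2ry13 and Fads2. Sema7a, a membrane-anchored semaphorin, rose by 3.42 ± 0.22, and Serpinb9, the inhibitor of granzyme B, by 3.39 ± 0.24. The ADP receptor gene P2ry13 rose by 3.44 ± 0.27 and the fatty acid desaturase gene Fads2 by 3.42 ± 0.36. Serpinb9 protects a cell from the protease that killer cells deliver. Tnip3, a partner of the NF-kB inhibitor A20, rose by 3.22 ± 0.25, Melk, a kinase of dividing cells, by 3.31 ± 0.25, and the stress gene Niban1 by 3.26 ± 0.20. For each of these genes both LMP1 arrays lay above both controls, and the controls of Fads2 were uneven, at 7.05 and 8.20.

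Large decreases were likewise found in genes of varied roles. Plac8 read 10.61 and 10.57 on the controls and 6.63 and 6.61 on the LMP1 arrays, a change of -3.97 ± 0.20 (adjusted p = 4.23e-06). Jchain, the chain that joins IgM and IgA into polymers, read 8.14 and 8.02 against 4.67 and 4.55, a change of -3.47 ± 0.17. Pirb, an inhibitory receptor for class I molecules, read 8.02 and 7.80 against 4.75 and 4.61, a change of -3.23 ± 0.17. Each of them was lower on both LMP1 arrays than on either control. The adhesion molecule gene Cd2 fell by 3.22 on the log2 scale, while the urokinase receptor gene Plaur changed by -3.36 ± 0.21 and Clec2i, of the C-type lectin family, by -3.35 ± 0.30. Xkrx, Treml2 and the zinc finger gene Zfp945 changed by -3.71 ± 0.16, -3.44 ± 0.20 and -3.99 ± 0.42, and Zfp945 read 8.55 and 9.81 on the controls. Among the 25 largest decreases, 2 were gene models without a settled name.

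**Figure D3:**
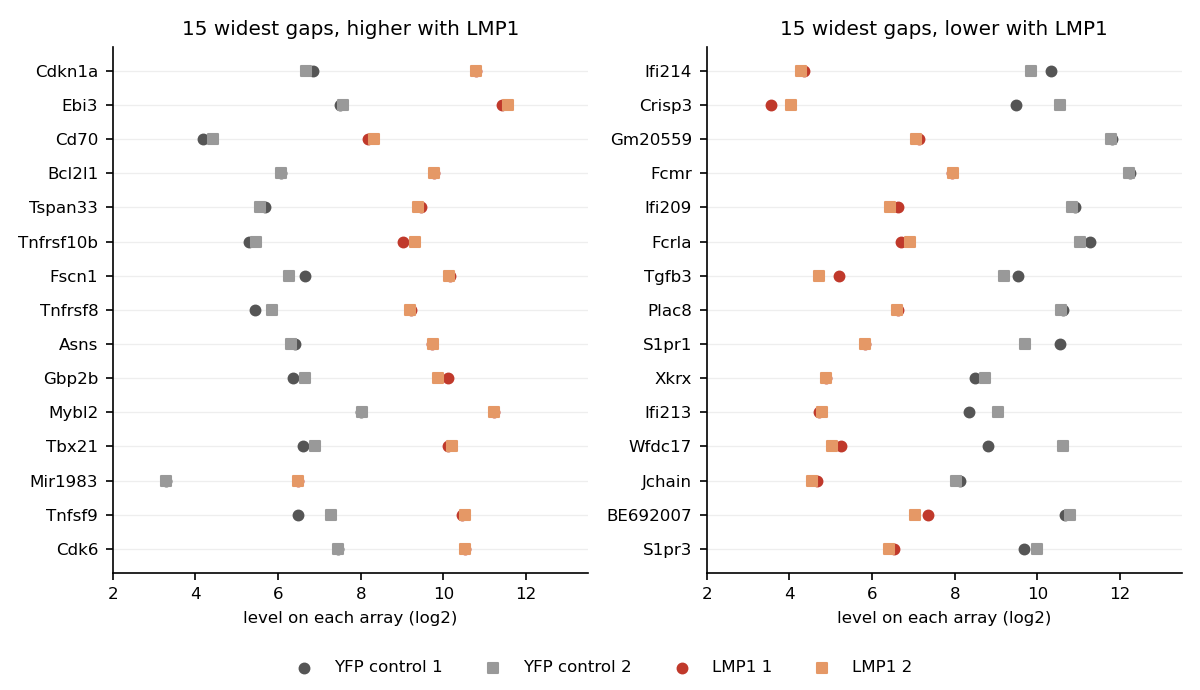
Level on each array (log2) of the 15 genes per direction whose groups are farthest apart, with YFP controls in grey and LMP1 arrays in red and orange. In every row the groups are separate, and Cdk6 and Mybl2 have nearly coinciding arrays within each group.

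Receptors of the TNF family, which signal through TRAF adaptors or death domains, were called higher for 9 of 28 measured members and lower for 2, with a median change of 0.21 against -0.07 over all genes. That median was 0.05 without YFP control 2 and 0.10 after quantile normalization within the 4 arrays. The largest change was that of Tnfrsf10b, the death receptor for TRAIL, at 5.29 and 5.47 in controls and 9.02 and 9.31 with LMP1. Tnfrsf8, described above, came next at 3.56. The death receptor gene Fas followed, at 6.04 and 6.81 against 9.37 and 9.34. Both LMP1 arrays were above both controls for each of these genes, a change of 3.79 ± 0.18 for Tnfrsf10b and 2.93 ± 0.25 for Fas. Cd40 itself, the receptor whose signal LMP1 resembles, read 9.69 and 8.98 against 10.65 and 10.58, a change of 1.28 ± 0.24. Tnfrsf14, the receptor HVEM, Tnfrsf21 (DR6) and Relt rose by 1.28 ± 0.18, 1.02 ± 0.20 and 0.99 ± 0.16. Eda2r (0.67) and Tnfrsf4 (0.56), encoding OX40, passed narrowly, and neither did without YFP control 1 (Tnfrsf4 not without YFP control 2 either). Tnfrsf26 (-1.15) and Cd27 (-0.56) were called lower, and neither was without YFP control 1 (adjusted p = 0.0693 and 0.116, limma). The survival receptor for BAFF, Tnfrsf13c, was at 10.98 and 11.02 against 10.84 and 10.86 without passing, and TACI, encoded by Tnfrsf13b, at 0.44 ± 0.33. Tnfrsf9 was at 0.41 ± 0.19, Tnfrsf18 at 0.20 ± 0.17 and Tnfrsf1b, a tumour necrosis factor receptor, at -0.20 ± 0.17, none of which passed.

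Of 37 interleukin and interferon receptor chains 5 were called higher, close to the share over all genes, and 7 were called lower. The lower calls were 11 without YFP control 2 and 12 after quantile normalization within the 4 arrays. Il12rb1, a chain shared by the receptors for interleukins 12 and 23, read 5.86 and 6.21 in controls and 8.25 and 8.16 with LMP1. Il5ra rose by 1.81 ± 0.31 and Il15ra by 1.19 ± 0.20. Il2ra, the alpha chain of the interleukin 2 receptor, read 8.52 and 10.15 on the controls, 1.63 log2 apart, and 11.17 and 11.01 on the LMP1 arrays. Both chains of the interleukin 10 receptor fell, Il10rb by 1.40 on the log2 scale (adjusted p = 0.00037) and Il10ra by 1.25 (adjusted p = 0.00253). Ifnar1, a chain of the type I interferon receptor, changed by -0.83 ± 0.18 and Il4ra by -0.84 ± 0.28 without passing.

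Fc receptors bind the constant part of antibodies, and their family was called lower for 6 of 16 members and higher for 1. Fcmr, the receptor for IgM, read 12.25 and 12.21 in controls and 7.93 and 7.95 with LMP1. Fcgr2b, the inhibitory receptor for IgG, read 10.56 and 10.79 against 8.81 and 8.76, a change of -1.89 ± 0.16 (adjusted p = 4.88e-05). The exception was Fcer2a, encoding the low-affinity IgE receptor CD23, at 10.53 and 10.34 in controls and 11.92 and 11.95 with LMP1, a change of 1.5 ± 0.16 (adjusted p = 0.000148). Fcrl1 (-0.68), Fcgrt (-1.37), Fcer1g (-1.49) and Fcrla completed the calls, that of Fcer1g not without YFP control 2. Fcrl5 was at 8.47 and 10.11 on the controls and 8.19 and 8.25 with LMP1 and did not pass.

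Toll-like receptors and their partners, which detect microbial products, fell for 9 of 23 members and rose for 2, with a median of -0.63. The endosomal receptors for nucleic acids were in front. Tlr9, which binds bacterial DNA, read 10.43 and 10.65 against 8.39 and 8.44, a change of -2.12 ± 0.17. Tlr7, which binds single-stranded RNA, read 9.54 and 10.74 against 7.43 and 7.24, a change of -2.80 ± 0.34. Tlr3 (-1.87), Cd180 (-1.44) and Tlr4 (-1.22) fell too. The adaptor gene Myd88 was at 0.11 ± 0.17 without passing, and Tirap (0.78) and Tlr12 (1.02) were called higher, Tirap not without YFP control 2.

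Receptors for lipids, nucleotides and chemoattractants were called lower for 10 of 34 members (29.4%) and higher for 5 (14.7%, close to the share over all genes). The purinergic receptors P2ry13, P2ry12 (2.25 ± 0.24), P2ry2 (1.24 ± 0.20) and P2ry14 (0.77 ± 0.23, not called without YFP control 1) were among those called higher, with Gpr132, a receptor for oxidised lipids, at 1.89 ± 0.18. Those called lower included S1pr1 and S1pr3, receptors for sphingosine phosphate, and Cnr2, the peripheral cannabinoid receptor, at 9.67 and 8.83 in controls and 7.34 and 7.40 with LMP1. P2rx4, an ATP-gated channel, changed by -1.64 ± 0.18 and Gpr174 by -1.44 ± 0.16.

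Semaphorins and plexins, guidance ligands and their receptors, were called higher for 8 of 26 members and lower for 4. Plxnd1 read 6.48 and 6.5 in controls and 9.45 and 9.53 with LMP1, a change of 3.0 ± 0.19 (adjusted p = 1.07e-05), and Nrp2, Plxna1 and Sema4a rose by 2.06 ± 0.22, 1.74 ± 0.16 and 1.70 ± 0.18. Tetraspanins, organisers of membrane domains, were called higher for 7 of 26 and lower for 5, with Tspan3 (2.02), Cd82 (1.86) and Tspan31 (1.44) higher and Cd53 (-1.99), Tspan32 (-1.73) and Tspan13 (-1.36) lower. Their median of -0.04 turned to 0.02 after quantile normalization within the 4 arrays. Of 26 integrin chains, Itgal (1.21) and Itgb1 (0.77) were called higher and Itgb7 and Itga6 (-1.65) lower. Itgb7, part of a receptor for gut homing, read 9.35 and 8.02 in controls and 5.97 and 6.08 with LMP1.

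The antigen receptor and its proximal signalling genes were called lower for 15 of 28 members and higher for none, with a median of -0.64. Without YFP control 2 the counts were 22 lower and 1 higher. Bank1, a B cell scaffold protein, read 12.24 and 12.41 in controls and 10.20 and 10.16 with LMP1, a change of -2.15 ± 0.16 (adjusted p = 2.32e-05). Both LMP1 arrays were below both controls. Siglecg, an inhibitory sialic acid receptor, changed by -2.23 ± 0.28, the adaptor gene Lat2 by -1.80 ± 0.17, the kinase gene Blk by -1.46 ± 0.28 and Btk, the kinase missing in agammaglobulinaemia, by -1.27. The kinase gene Syk (-0.33 ± 0.20) and the phosphatase gene Ptpn6 (-0.29 ± 0.21) did not pass with all arrays and were called lower without YFP control 2.

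TRAF adaptors, some of which bind the LMP1 tail, were called higher for 4 of 6 measured members and lower for 1. The higher calls were 3 after quantile normalization within the 4 arrays and 2 with only those 4 arrays in the model. Traf7, at 9.34 and 8.49 on the controls, was not called in the latter (adjusted p = 0.0744, limma). Traf3 was not among the 6. Traf1, itself a target of NF-kB, read 8.10 and 7.93 in controls and 10.11 and 10.07 with LMP1. Traf4 rose by 1.16 ± 0.17, Traf7 by 1.00 ± 0.25 and Traf6 by 0.83 ± 0.24, and the call of Traf6 was lost without YFP control 2 (adjusted p = 0.11, limma). Traf5 read 8.92 and 8.36 against 6.92 and 6.91, a change of -1.72 ± 0.20. Traf2 was at 0.56 ± 0.25, which passed only when YFP control 1 was left out.

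In the NF-kB and IkB family 5 of 13 members were called higher and 1 lower, and 9 were higher without YFP control 1. The family's median of 0.41 was 0.92 without YFP control 1 and -0.10 without YFP control 2. Nfkb2, the precursor of the noncanonical subunit p52, read 8.65 and 7.70 in controls and 10.51 and 10.53 with LMP1, a change of 2.35 ± 0.27 (adjusted p = 0.000213). Of the inhibitors, Nfkbia, which NF-kB itself induces, rose by 1.94 ± 0.15, Nfkbie by 1.29 ± 0.34 and Nfkbib by 1.12 ± 0.18, while Nfkbid (0.30 ± 0.37) and Nfkbiz (0.51 ± 0.23) did not pass. The noncanonical partner Relb was at 7.77 and 6.74 in controls and 7.64 and 7.69 with LMP1 and passed only when YFP control 1 was left out. Rela (-0.13 ± 0.17) did not pass, and Rel fell by 0.53 on the log2 scale, a call lost without YFP control 2 (adjusted p = 0.125, limma). Bcl3 was at -0.90 ± 0.32 without passing.

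Of 30 dual-specificity phosphatases and Sprouty genes, which damp MAP kinase signals, 5 were called higher (16.7%, close to the share over all genes), and 10 without YFP control 1 and 8 without YFP control 2. Among the 5 were Dusp14 (2.00 ± 0.22), Spred1 (1.63 ± 0.19), Dusp16 (1.53 ± 0.17) and Dusp4 (1.33 ± 0.25), and Dusp22 was lower (-0.68). Of 14 SOCS and STAT genes Socs1 (1.12), Stat5a (0.91) and Socs2 (0.88) were higher, with 5 higher without YFP control 1, and Stat3 was at -0.09 ± 0.15. The regulators of G protein signalling, which shorten responses to chemoattractants, had 0 of 21 members higher and 5 lower, with Rgs14 (-1.5 ± 0.20), Rgs10 (-1.27 ± 0.19) and Rgs2, at 8.21 and 9.52 on the controls and 7.30 and 6.85 with LMP1. In the PI3K and mTOR pathway 6 of 29 were higher and 6 lower. The counts were 6 and 10 without YFP control 2, 9 and 5 without YFP control 1, and 5 and 11 after quantile normalization within the 4 arrays. Pik3cg, a catalytic PI3K subunit, changed by -2.69 ± 0.21 and the inositol phosphatase gene Inpp4b by -2.30 ± 0.17, and the translation repressor gene Eif4ebp1 was higher by 1.77 ± 0.16.

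**Figure D4:**
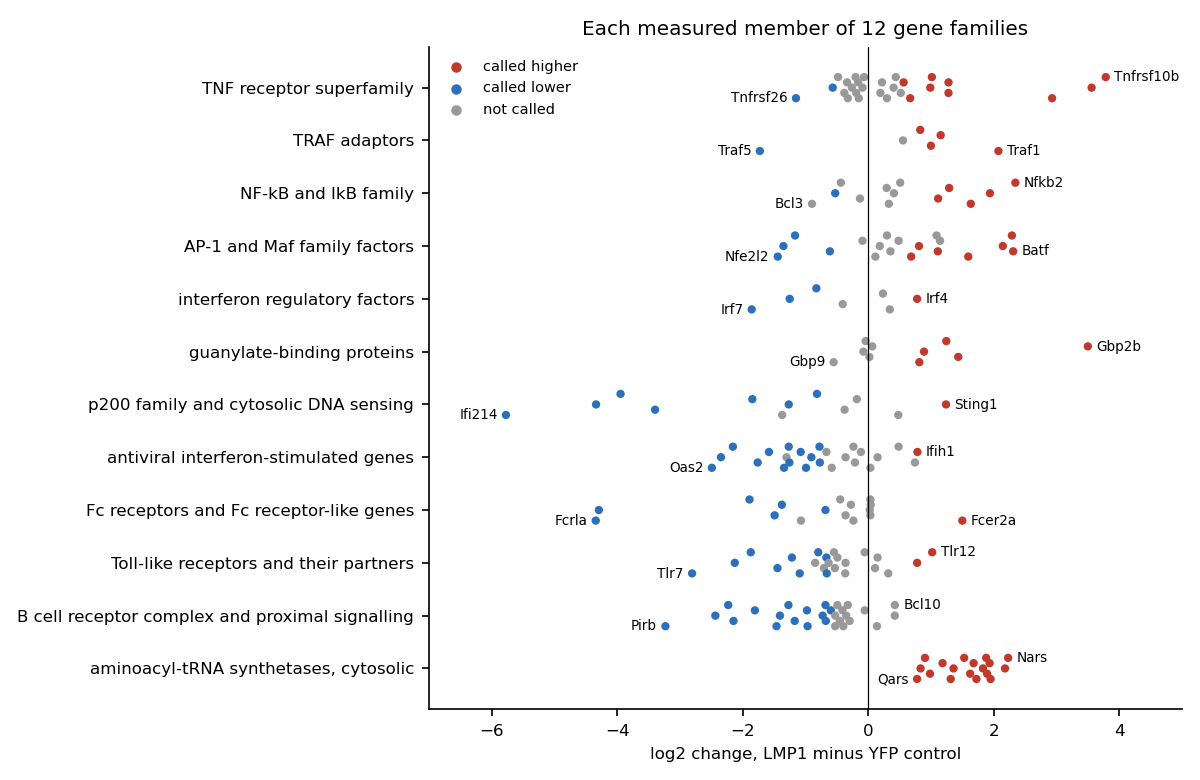
Log2 change (LMP1 minus YFP control) of each measured member of 12 gene families, 1 point per gene, red for called higher, blue for called lower and grey for not called, with the members at both ends named. All 18 cytosolic aminoacyl-tRNA synthetases lie to the right of 0, and 7 of 12 genes of the p200 and DNA sensing family are called lower.

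Among B lineage transcription factors 14 of 28 were called lower and 5 higher. Zbtb20 changed by -2.36 ± 0.19 and Bcl6, the master regulator of germinal centre B cells, read 9.40 and 9.07 in controls and 7.25 and 7.0 with LMP1, a change of -2.11 ± 0.19. Runx1 fell by 1.55 on the log2 scale while Runx3 rose by 1.02, and Id2, an inhibitor of E proteins, rose by 1.61 ± 0.18. Pax5, the factor that holds B cell identity, was at 10.54 and 9.94 against 10.24 and 10.29, and the groups overlapped. Foxp1 (-1.42) and Ikzf3 (-1.63) were lower, and Ikzf1 did not pass at 0.19 ± 0.17.

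In the AP-1 and Maf family 7 of 19 were called higher and 4 lower. Batf, a partner of IRF4 in activated lymphocytes, read 7.33 and 6.53 in controls and 9.12 and 9.36 with LMP1, a change of 2.31 ± 0.25 (adjusted p = 0.000164). Atf3 rose by 2.15 ± 0.20, Jdp2 by 1.6 ± 0.20 and Junb by 1.11 ± 0.20. Bach2, which restrains differentiation of B cells, read 11.18 and 10.71 against 9.83 and 9.73, and Bach1 and Nfe2l2 changed by -1.35 ± 0.19 and -1.44 ± 0.19. Of the 7 interferon regulatory factors, Irf4 was called higher (0.78, adjusted p = 0.0563 without YFP control 2, limma) and Irf7 (-1.86), Irf2 (-1.25) and Irf8 (-0.83) lower. Without YFP control 2 the counts were 0 higher and 5 lower, and without YFP control 1 they were 3 and 3, with Irf1 and Irf3 called higher (adjusted p = 0.00869 and 0.000864, limma). Of 31 Kruppel-like and quiescence factors 8 were lower and 0 higher, with 15 lower when YFP control 2 was left out. Btg2, an antiproliferative gene, read 10.28 and 10.33 in controls and 7.64 and 7.35 with LMP1.

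Chromatin enzymes were called higher for 10 of 31 members (6 after quantile normalization within the 4 arrays) and lower for 8. Uhrf1, which guides maintenance methylation to new DNA, read 7.60 and 7.01 in controls and 10.01 and 10.09 with LMP1. Hells rose by 2.27 ± 0.18, the Polycomb genes Eed, Ezh2 and Suz12 by 1.15, 0.94 and 0.75 (Suz12 not called without YFP control 1), and Dnmt1 by 0.88 ± 0.16. Ezh1, the Polycomb enzyme of resting cells, changed by -1.18 ± 0.19, the acetyltransferase gene Ep300 by -1.18 ± 0.17, and the deacetylase gene Hdac9 by -1.64 ± 0.19.

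Genes induced by interferons moved apart by family. Guanylate-binding proteins, GTPases that attack the vacuoles of pathogens, were called higher for 5 of 10 members and lower for 0, with a median of 0.44. After quantile normalization within the 4 arrays 2 were called higher and 1 lower, with a median of 0.32. Gbp2b read 6.35 and 6.64 in controls and 10.11 and 9.88 with LMP1, a change of 3.5 ± 0.35 (adjusted p = 0.000105). Gbp8 rose by 1.43 ± 0.18 and Gbp3 by 0.89 ± 0.19, while without YFP control 2 the calls of Gbp7 and Gbp5 were lost (adjusted p = 0.0676 and 0.0503, and 0.0768 for Gbp7 without YFP control 1) and Gbp9 was called lower (adjusted p = 0.0063, limma), which left 3 higher and 1 lower. Iigp1, an immunity-related GTPase, rose from 5.15 and 5.38 to 6.81 and 7.06. Gbp genes, like those of the p200 family, are close paralogs, and how far their probes cross-hybridise was not tested.

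The p200 family, interferon-inducible nuclear proteins that include DNA sensors, and its associated genes went the other way, with 7 of 12 lower and 1 higher and a median of -1.32. Ifi214 read 10.34 and 9.85 in controls and 4.36 and 4.29 with LMP1, and Ifi209 10.91 and 10.84 against 6.64 and 6.44. Ifi213 and Ifi208 changed by -3.94 ± 0.23 and -3.39 ± 0.29, and Mndal by -1.84 ± 0.17. Sting1, the adaptor of cytosolic DNA sensing, was the single member called higher, at 9.75 and 9.06 against 10.61 and 10.68, and Aim2 was at -0.18 ± 0.19. Classical antiviral genes were called lower for 13 of 25 and higher for 1. Oas2 changed by -2.49 ± 0.21, the RNA sensor gene Ddx58 (RIG-I) by -2.15 ± 0.20 and Mx1 by -0.99, while Isg15 was at 5.01 and 4.98 against 5.18 and 5.11 and the sensor gene Ifih1 was called higher (0.79), though not without YFP control 1. In the Slfn family Slfn5 changed by -2.71 ± 0.17 and Slfn8 by -1.68 ± 0.16, and Slfn3 rose by 1.09 ± 0.24. Of 20 Ms4a membrane protein genes 6 were lower and 0 higher, led by Ms4a4c (-2.23 ± 0.17).

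Genes of DNA replication rose almost without exception. Of 48 licensing factors and polymerase subunits 45 were called higher and 0 lower, with a median of 1.67. Tipin, a protector of replication forks, read 6.97 and 6.46 in controls and 9.70 and 9.73 with LMP1, a change of 3.0 ± 0.24 (adjusted p = 3.06e-05). Chaf1a, which places histones on new DNA, rose by 2.79 ± 0.19 and Pole, the leading-strand polymerase, by 2.56 ± 0.20, whereas Orc3 (-0.05) and Orc4 (0.12) did not pass. Nucleotide synthesis genes rose for 21 of 25 members, with Umps (2.28 ± 0.16) and Gart (2.30 ± 0.21) for pyrimidines and purines, and Ctps2 was called lower at -1.38 ± 0.18.

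Mitotic genes followed, with 28 of 56 kinesins and centromere proteins higher and 1 lower. Cenph, of the inner kinetochore, read 5.74 and 5.59 in controls and 8.33 and 8.28 with LMP1, a change of 2.64 ± 0.16. Kif22 rose by 2.44 ± 0.21 and Kif20a by 1.98 ± 0.21, while Kif9, a motor outside mitosis, was called lower (-0.71), though not without YFP control 2. Of 23 cyclins, their kinases and inhibitors 14 were higher and 1, Ccng2 (-1.08 ± 0.21), lower. Of the inhibitors, Cdkn1a rose by 4.03 ± 0.16 (adjusted p = 1.79e-06). Cdkn1b was at 9.30 and 7.86 on the controls and 8.33 and 8.16 with LMP1, and did not pass. Of 31 genes of DNA repair and checkpoints 20 were higher and 0 lower, including Chek1 (2.89 ± 0.21), Brca1 (2.66 ± 0.31) and Rad54l (2.54 ± 0.25). H2ax, which marks broken DNA, was called at 2.71 ± 0.75 with controls 3.01 log2 apart, and was not called without YFP control 2 (1.20, adjusted p = 0.0778, limma).

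RefSeq promoter windows (assembly GRCm38.p6, 250 bases before to 50 after the gene start) matched 156 of the 211 genes in the lists of division. The letters TTTNGCGC on either strand, a form of the E2F site, stood in 21 of these 156 windows and in 16 of the 106 whose genes were called higher. Over all 14025 windows of genes with 1 promoter the share was 1.79%, and it was 4.31% for genes called higher, 1.54% for those lower and 1.3% for those not called, with no test made. Mean GC content, which also differs between these classes, was 61%, 55.2% and 54.7%. The 3 windows below belong to the division genes with these letters that had the widest gap between the groups, a choice made after the values were seen. They show where the letters lie, in capitals, and each is written along the strand of its gene.
Cdc25a: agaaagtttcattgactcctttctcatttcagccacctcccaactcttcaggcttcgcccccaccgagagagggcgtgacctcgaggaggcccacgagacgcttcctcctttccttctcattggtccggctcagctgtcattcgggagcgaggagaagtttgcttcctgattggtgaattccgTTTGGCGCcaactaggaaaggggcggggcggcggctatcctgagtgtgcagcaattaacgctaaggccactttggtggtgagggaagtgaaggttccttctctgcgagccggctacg
Orc1: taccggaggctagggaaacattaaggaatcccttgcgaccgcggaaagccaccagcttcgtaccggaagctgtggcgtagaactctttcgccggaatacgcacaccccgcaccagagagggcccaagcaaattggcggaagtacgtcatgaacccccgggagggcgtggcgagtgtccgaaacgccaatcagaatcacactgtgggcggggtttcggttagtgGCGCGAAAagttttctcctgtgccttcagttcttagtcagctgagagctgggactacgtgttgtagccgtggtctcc
Cdk1: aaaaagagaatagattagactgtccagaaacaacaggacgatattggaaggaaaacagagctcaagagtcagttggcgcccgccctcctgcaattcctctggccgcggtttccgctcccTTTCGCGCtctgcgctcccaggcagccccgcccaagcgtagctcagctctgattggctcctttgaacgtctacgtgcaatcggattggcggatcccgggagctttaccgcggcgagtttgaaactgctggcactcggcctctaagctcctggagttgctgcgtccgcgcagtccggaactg

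Cdc25a, the phosphatase that activates CDK2 (chr9:109875329-109875628, plus strand), has the letters starting 67 bases before the gene start. Its gene read 8.05 and 7.85 in controls and 10.23 and 10.32 with LMP1, a change of 2.33 ± 0.20. In Orc1, of the origin recognition complex (chr4:108579204-108579503, plus strand), they lie on the opposite strand, 27 bases before the start, and the gene read 6.02 and 6.19 against 8.22 and 8.29. In Cdk1, the mitotic kinase (chr10:69352863-69353162, minus strand), they start 131 bases before, and the gene read 7.51 and 8.39 against 10.42 and 10.46. A match of letters is a description and not evidence of binding.

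Other letters were scanned in the same windows. The E box CACGTG of Myc and related factors stood in 12.7% of windows of genes called higher, 7.32% of those lower, 7.18% of those not called and 8.04% of all. The kappa B letters GGANTTTCC stood in 1.61%, 1.81%, 1.26% and 1.35%, and in 0 of the 20 windows found for the 30 genes with the widest gaps (9 of 15 higher and 11 of 15 lower had a window). The interferon-stimulated response element stood in 2.89%, 4.88%, 3.35% and 3.40%, the ATF4 letters TGATGNAA in 2.75%, 3.70%, 3.69% and 3.54%, and CCAAT in 43.5%, 37.9%, 38.0% and 38.8%. Both strands were read, and windows with several motifs count for each.

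In the Myc, Max and E2F network 8 of 20 members were called higher and 2 lower. Myc, a driver of growth genes, read 9.13 and 9.02 in controls and 10.67 and 10.79 with LMP1, a change of 1.66 ± 0.19. Tfdp1, the dimer partner of E2F proteins, rose by 1.97 ± 0.21 and E2f1 by 1.78 ± 0.19. The Myc antagonists Mxd4 and Mnt were lower, by -2.10 ± 0.34 and -0.80 ± 0.20 (Mnt not called without YFP control 1), and Max itself was at -0.05.

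Genes that supply and assemble protein were higher as groups. All 18 cytosolic aminoacyl-tRNA synthetases were called higher, with a median of 1.65 and a range from 0.78 for Qars to 2.23 for Nars. Nars read 9.11 and 8.26 in controls and 10.96 and 10.87 with LMP1. Without YFP control 2 the synthetase gene Wars was no longer called (adjusted p = 0.19, limma). Of 17 genes of serine, one-carbon, asparagine and proline synthesis 15 were called higher, with a median of 1.98. Psat1, an enzyme of serine synthesis, read 6.51 and 6.71 against 9.44 and 9.49, a change of 2.86 ± 0.18 (adjusted p = 1.07e-05), and Asns, which makes asparagine, 6.40 and 6.32 against 9.73 and 9.74. Shmt2, the mitochondrial enzyme that draws one-carbon units from serine, was at 9.73 and 8.31 on the controls and 12.09 and 12.10 with LMP1. Gldc, which breaks down glycine, was at -0.16 ± 0.20.

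Amino acid transporters were called higher for 10 of 23 members and lower for 3. Slc7a5, the large neutral amino acid carrier, rose by 2.56 ± 0.36, Slc7a1, a carrier of cationic amino acids, by 2.32 ± 0.22 and Slc1a4 by 2.53 ± 0.18. Slc38a9, the lysosomal arginine sensor of mTORC1, read 9.42 and 9.45 in controls and 8.04 and 8.05 with LMP1, and both LMP1 arrays were lower.

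Translation and mitochondrial genes rose by smaller steps. Among translation initiation factors 26 of 39 were called higher and 0 lower, with Eif2b1 (1.84 ± 0.20) and Eif6 (1.80 ± 0.23) in front and Eif4a1, at 13.28 and 12.86 against 12.67 and 12.63, not called. Mitochondrial ribosomal proteins had 50 of 69 members higher (median 0.94), and cytosolic ribosomal proteins 16 of 39 (median 0.62). The largest of the latter, Rps27l (2.85 ± 0.32), is a paralog of Rps27 that p53 induces. The log2 summed level of the cytosolic list was 16.07 and 15.99 on the controls and 16.25 and 16.3 on the LMP1 arrays. Its median was 0.38 without YFP control 2 and 0.725 without YFP control 1. The bright members Rpl4 (0.025 ± 0.18) and Rpl28 (-0.03 ± 0.15) did not pass, while Rps20, called higher, read only 5.32 and 4.34 on the controls. Respiratory chain and ATP synthase subunits were higher for 33 of 72, proteasome subunits for 32 of 38, mitochondrial import genes for 16 of 23, nuclear pore and importin genes for 24 of 35 and chaperones of the TCP1 ring and HSP families for 17 of 21. None of these lists held a member called lower with all arrays. Ipo4 (2.30 ± 0.22), Timm9 (2.30 ± 0.18), Hspd1 (1.88 ± 0.19) and Psma6 (1.75 ± 0.20) gave examples.

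**Figure D5:**
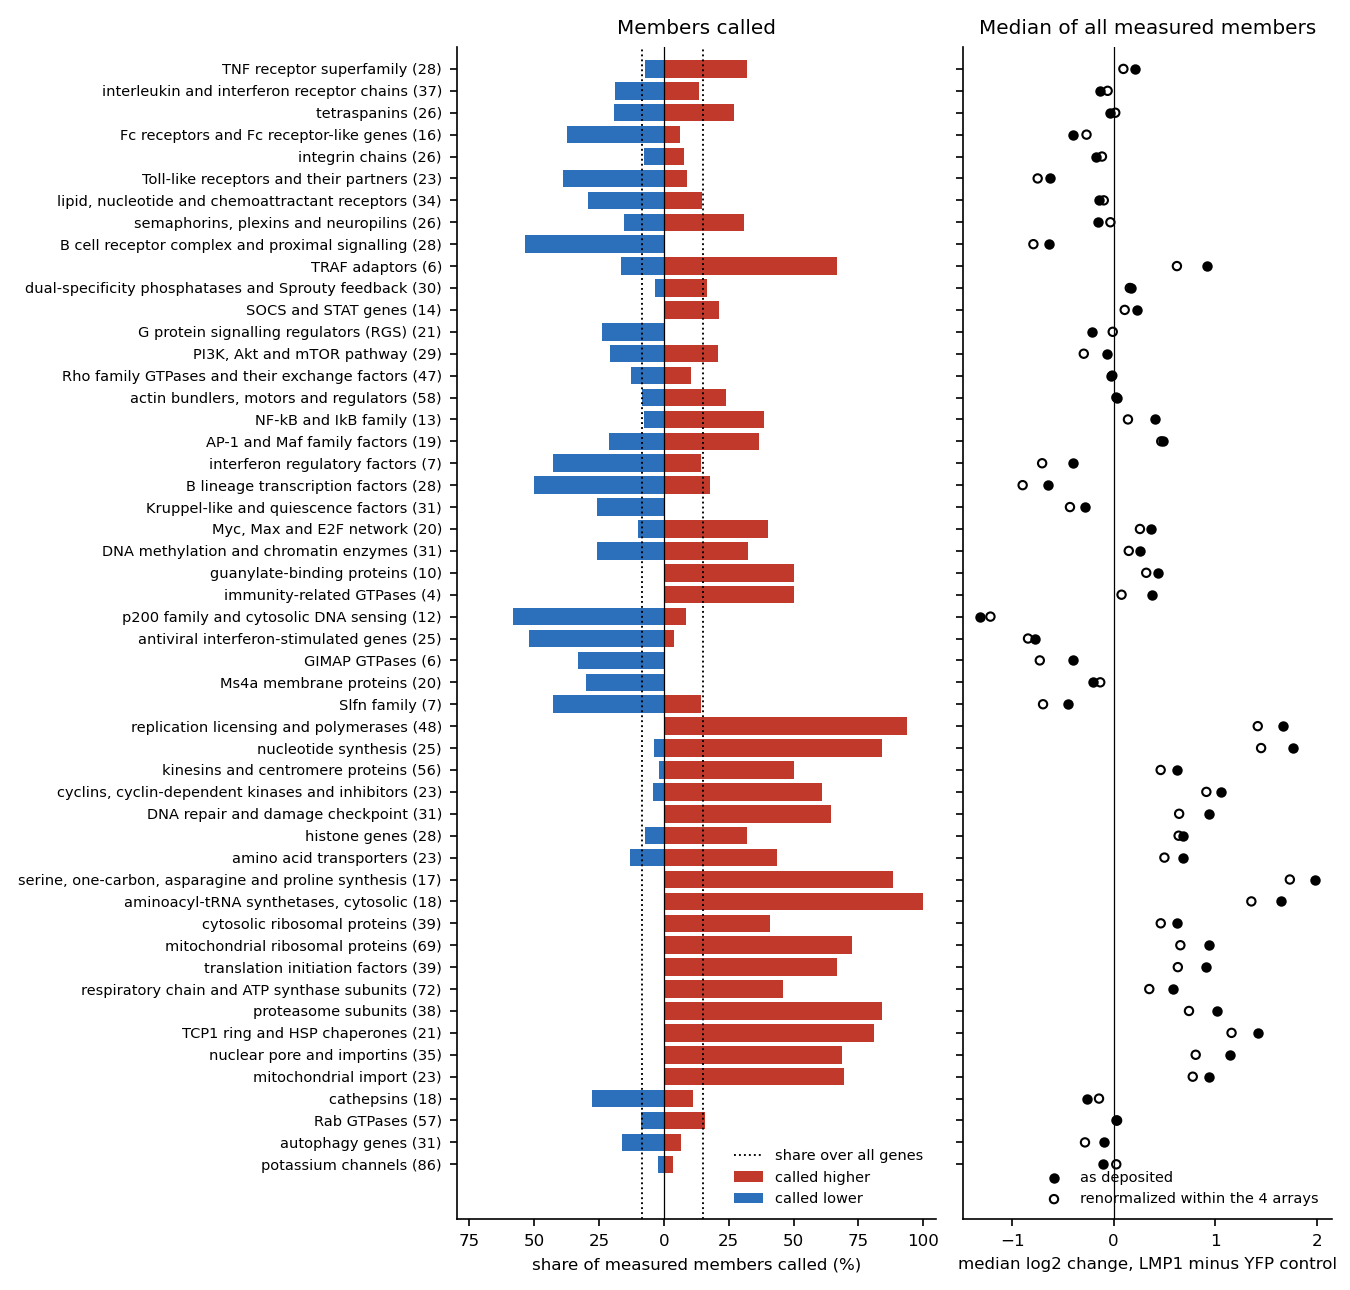
Share of measured members called higher (red, right) and lower (blue, left) per gene list, with the number measured in brackets and dotted lines at the shares over all genes (14.9% and 8.31%), beside the median log2 change of all measured members as deposited and after quantile normalization within the 4 arrays. The lists of division and biosynthesis lie to the right at both settings, and the p200 and antiviral lists to the left.

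Of 58 actin regulators 14 were called higher and 5 lower, with 10 and 10 without YFP control 2 and 9 and 13 after quantile normalization within the 4 arrays. Fscn1, the bundler of dendritic cell processes, read 6.64 and 6.27 in controls and 10.17 and 10.14 with LMP1, Basp1 rose by 1.98 ± 0.23, and Myo1f and Evl changed by -1.69 ± 0.25 and -1.14 ± 0.19. Of 57 Rab GTPases 9 were higher (15.8%) and 5 lower (8.77%), shares near those over all genes, and 19 were higher without YFP control 1. Rab27a, which docks secretory granules, rose from 7.16 and 6.37 to 9.45 and 9.58. Of 18 cathepsins 2 were higher and 5 lower, with Ctse, at 10.48 and 9.28 in controls and 7.95 and 7.74 with LMP1, the lowest. The call of Ctse was lost without YFP control 1 (adjusted p = 0.0574, limma). The nucleotide exchange factor gene Arhgef18 read 10.16 and 8.73 against 6.44 and 6.35.

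The array also carries probe sets on microRNA genes, which read the primary or precursor transcript and not the mature product. Of 438 such genes 18 were called higher and 51 lower, with 11 and 44 without YFP control 2 and 23 and 85 without YFP control 1. The shares were 4.11% higher and 11.6% lower, against 14.9% and 8.31% over all genes. Of the 438 genes 328 lay below the median gene of the YFP control arrays. The list was drawn up after the values were seen. The mature sequences of those that recur in B cell biology follow, from RefSeq (GRCm38.p6), with the seed, bases 2 to 8, in capitals, and they are shown because members that share a seed did not all move the same way.
mmu-miR-17-5p: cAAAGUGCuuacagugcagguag
mmu-miR-20a-5p: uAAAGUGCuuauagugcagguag
mmu-miR-20b-5p: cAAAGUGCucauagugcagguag
mmu-miR-18a-5p: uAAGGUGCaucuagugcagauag
mmu-miR-18b-5p: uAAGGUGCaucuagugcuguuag
mmu-miR-19a-3p: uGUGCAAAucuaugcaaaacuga
mmu-miR-15a-5p: uAGCAGCAcauaaugguuugug
mmu-miR-16-5p: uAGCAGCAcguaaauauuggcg
mmu-miR-342-3p: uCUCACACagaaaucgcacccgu

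The Mir17, Mir18, Mir19a and Mir20a genes lie together on chr14, from Mir17 at chr14:115043671-115043754 to Mir20a at chr14:115044157-115044263, and belong to 1 primary transcript, a known target of Myc, so they are not independent. Mir19a read 5.37 and 3.67 in controls and 6.92 and 6.45 with LMP1, and Mir18 6.78 and 5.98 against 7.77 and 7.69. All 4 were called higher, Mir18 by 1.35 ± 0.24, Mir20a by 1.00 ± 0.24 and Mir17 by 0.81 ± 0.24, and Mir17 was not called without YFP control 1 or without YFP control 2 (adjusted p = 0.0738 and 0.103, limma). Mir20b, of the related cluster on the X chromosome, shares its seed with Mir17 and Mir20a. It read 5.71 and 6.52 against 4.73 and 4.40, a change of -1.55 ± 0.26. Its neighbours on the same strand rose, Mir18b by 0.86 ± 0.20 and Mir363 by 0.85. Probe sets of 1 cluster thus read in opposite directions, and what they measure there was not tested.

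Mir15a and Mir16-1, which share a seed and an intron of Dleu2, were lower: Mir15a read 8.91 and 8.29 in controls and 7.51 and 7.21 with LMP1, and Mir16-1 6.91 and 6.71 against 5.74 and 5.83. Dleu2 itself was at 8.43 and 8.74 against 7.97 and 7.87 and did not pass. These microRNAs are known to restrain cyclins. Mir342, in an intron of Evl, read 8.75 and 9.27 against 5.87 and 5.62, a change of -3.27 ± 0.20 (adjusted p = 1.07e-05), and its host gene Evl 10.78 and 10.27 against 9.38 and 9.39.

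Markers checked the labelled cell type. B cell markers were all above the median gene of the YFP control arrays, 11 of 11, and 1 lay below that of the LMP1 arrays. Of these markers 9 were called lower with LMP1 and 0 higher. The log2 of their summed level was 15.21 and 15.02 on the controls and 14.02 and 14.09 on the LMP1 arrays. Cd79a, a chain of the antigen receptor, read 12.65 and 12.62 against 11.49 and 11.44, and Ms4a1, encoding CD20, 11.70 and 11.87 against 11.28 and 11.31 without passing. Plasma cell markers were called higher for 2 of 8, Irf4 and Slamf7 (0.70), and lower for 2, Jchain and Sdc1 (-0.90), of which Irf4 was lost without YFP control 2 and Sdc1 without YFP control 1, with Prdm1 at -0.46 ± 0.20.

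Most markers of monocytes and macrophages, NK cells, neutrophils and erythroid cells and platelets lay below the median gene in both groups. Of 11 T cell markers 5 lay below it in YFP controls and 7 with LMP1. Of 9 dendritic cell markers 7 lay below it in YFP controls and 4 with LMP1. Of 14 monocyte and macrophage markers 4 were called lower and 0 higher: Ly6c2 read 7.55 and 8.71 in controls and 6.24 and 5.52 with LMP1, Adgre1 7.53 and 8.03 against 5.84 and 5.68, Lyz2 4.91 and 5.90 against 3.37 and 3.63, and Spic changed by -1.01 ± 0.24 (not called without YFP control 2). Their log2 summed level was 9.85 and 10.49 on the controls and 9.41 and 9.36 on the LMP1 arrays, and 10 of 14 were below the median gene in both groups, with Csf1r, a defining marker, at 5.09 and 4.82 against 5.01 and 5.2. The part of such cells in the genes called lower was not tested. Of 11 T cell markers 3 were lower, Cd2, Cd3g (-1.13 ± 0.29) and Cd28 (-0.59), the last of them not called without YFP control 1 and Cd3g not without YFP control 2, while Cd3e was at 6.11 and 6.24 against 5.85 and 6.21 and the log2 summed level was 10.13 and 10.10 against 8.93 and 9.07. Cd2 alone read 9.33 and 8.77 on the controls and 5.87 and 5.79 on the LMP1 arrays and so weighs heavily in that sum. Whether the T cell content differed was not tested. Of 9 dendritic cell markers Flt3, the receptor for a dendritic cell growth factor, read 6.33 and 6.82 in controls and 9.68 and 9.46 with LMP1, and Zbtb46 rose by 1.79 ± 0.18. Itgax, which encodes CD11c, was at 5.23 and 5.22 against 5.13 and 5.16, Xcr1 and Clec10a did not pass, and the summed level was 11.26 and 11 against 11.78 and 11.62. NK cell markers (9 measured), neutrophil markers (10) and erythroid and platelet markers (6) had 0 members called, with log2 summed levels of 8.08 and 8.59 against 8.09 and 8.10, of 8.18 and 8.33 against 8.04 and 8.13, and of 7.85 and 7.99 against 7.74 and 7.77.

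Families that B cells are not known to use gave a view of the lower end of the scale. Olfactory receptors were called lower for 141 of 1065 genes (13.2%) and higher for 1, with a median change of -0.31 at a median YFP control level of 3.72. Without YFP control 2 the count of lower calls was 70, without YFP control 1 it was 293, and after quantile normalization within the 4 arrays it was 70 with a median of -0.14. Vomeronasal receptors were lower for 33 of 277 and higher for 0, with 65 lower without YFP control 1 and 19 without YFP control 2, and keratins for 0 of 53 in either direction. A lower call near the bottom of the scale thus also occurred in genes with no known role in these cells, and the shares of lower calls in the microRNA and Ms4a lists (11.6% and 30.0%) stand beside this one. Potassium channels were called higher for 3 of 86 and lower for 2.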

How the data were processed

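Expression was measured on Affymetrix whole-transcript arrays, 2 per group. The authors deposited 1 log2 level for each probe set and array. The submitters' processing notes name RMA and oligo, without versions. RMA evens out probe intensities between arrays, so a shift of all genes together is largely removed, yet the interquartile range of the deposited levels still differed between the 4 arrays (2.62 to 3.38). Probe sets with several symbols (616) or none (2508) stayed out. For 640 genes with several probe sets the brightest was used. Names were taken from the annotation of the array platform, and sequences from RefSeq tables of GRCm38.p6.

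The 4 groups of the series were modelled together (limma 3.58.1 under R 4.3.3, lmFit, eBayes, 4 residual and 5.75 prior degrees of freedom), two-sided, with Benjamini-Hochberg adjustment. Summaries used Python 3.11.15 with pandas 2.3.3 and numpy 2.4.6. The fit was tested on simulated data, in which all arrays had the same spread for a gene, unlike these arrays. It found 0 of 67 changes of 0.5 log2, 18 of 67 of 1 log2 and 60 of 66 of 2 log2. Of 21315 genes simulated without a change 2 were called. A gene that did not pass is therefore not shown to be unchanged. Named genes were the 25 with the largest changes and the 15 with the widest gaps per direction, the 4 most and 2 least changed of each list, every member of the TNF receptor, TRAF, NF-kB, interferon regulatory factor, guanylate-binding protein, Fc receptor and marker lists, and the 10 genes per direction farthest apart within a group. Others were chosen after their values were seen. The members and lists were chosen with earlier results of these data known. The number of arrays limits the precision. Deviations of arrays with the same number correlated at 0.06 (LMP1 and YFP control) and -0.07 (the other pair of groups). This check rests on 1 difference per group, so it cannot tell whether a number marks a shared animal or day. Alternatives were other variance models, array weights, probe set rules, scalings, a block for the replicate number and leaving out each array.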

Additional observations from a re-analysis of the deposited data

Results flagged for a closer look

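Of 3124 probe sets with no gene symbol or several, which the comparison of genes leaves out, 620 passed the same limma test between LMP1 and YFP control cells (19.8%), 306 higher and 314 lower. They were singled out because they lie outside the genes described. They are given as a count because they match no single gene.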

How the results depend on the processing

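The count of 4995 called genes lay between 2647 and 7090 when 1 array was left out, the lowest without LMP1 array 1 and the highest without YFP control 1. Genes called higher ranged from 1795 to 4149 and genes called lower from 812 to 2941 over the same fits, and genes with a gap of at least 1 log2 from 1910 to 3145. A group left with 1 array was assumed to vary like the others. In every one of the 8 fits that leave out an array, 2345 genes stayed called, 1659 higher and 686 lower. With only the 4 arrays in the model 3664 genes were called, and with a replicate block 4959, 3153 higher and 1806 lower. The labels do not say whether the replicate numbers pair the arrays. Quantile normalization within the 4 arrays gave 2480 higher and 2282 lower. Of the named genes, 9 changed sign and were called on the other side, none of them called with all arrays. Over the fits that leave out 1 array, Bst1 ranged from -1.08 to 0.98, Irf3 from -0.53 to 1.22, Lemd2 from -0.59 to 1.83, Mir374b from -1.12 to 1.72, Ppdpf from -0.97 to 1.72, Snord61 from -1.16 to 1.57, Snord66 from -1.11 to 1.34 and Msn from -0.50 to 0.49, and the extremes were the fits without 1 of the YFP controls. Eif4a2 was at 1.98 with a probe set of its own in place of the brightest. The cause was not tested.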
